A study of Mus musculus and Rattus norvegicus with 35 samples.

Results

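The heart of C57BL/6 mice was represented by 3 rRNA-depleted total-RNA libraries, 1 from 14-week and 2 from 20-week mice, out of the 35 samples of the series. They were selected by tissue label and library type and set against 12 libraries prepared in the same manner, 3 each of brain, liver, lung and testis, again 1 at 14 and 2 at 20 weeks per tissue. All 15 carried the C57BL/6 label, with no treatment or genetic modification named. The other 20 samples, which cover hippocampus and its fractions, CA1 layers, rat cultures and an oligo(dT)-selected brain library, entered no test, and the 13 mouse ones among them are cited only for Ttn circRNAs and the Slc8a1 circle. Gene levels were read as TPM, a length-scaled share of transcripts, and circular RNA (circRNA) levels as RPM, reads over a back-splice junction scaled to library size by the authors. Heart values are given in the order 14 weeks, first and second library of 20 weeks. The labels do not say whether the 2 libraries of 20 weeks came from separate animals, so p-values measure the spread between libraries, which may be technical.

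Working myocardium consists of cardiomyocytes, whose sarcomeres slide thick myosin filaments along thin actin filaments, with the giant protein titin (Ttn) as a molecular spring. Each beat is triggered by calcium that enters through L-type channels, is multiplied by release through the ryanodine receptor (Ryr2), and is removed by the sarcoplasmic pump (Atp2a2, SERCA2a) and the sodium-calcium exchanger (Slc8a1, NCX1). The adult heart burns mainly fatty acids in a dense mitochondrial network. A circRNA forms when the 5′ splice site at the end of an exon is joined backwards to the 3′ splice site of the same or an upstream exon, and the resulting junction is absent from the linear transcript.

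The junctions that carry the heart results are shown first, as the last 20 bases before the back-splice in lower case and the first 20 bases after it in capitals. They were read from GENCODE M21 transcripts whose exon lengths match the exons listed for the circRNA. The most abundant Ttn circRNA lies at chr2:76695961-76719896 (mm9, minus strand) and joins exon 119 to exon 86 of a 313-exon transcript. The second, at chr2:76695961-76722254, joins the same exon 119 to exon 85, so that both share the bases in lower case, and the third, at chr2:76701331-76706142, runs from exon 105 to exon 111 inside the first. All 3 are exonic and lie within the coding sequence.
Ttn 34 exons: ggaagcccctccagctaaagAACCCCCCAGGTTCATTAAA
Ttn 35 exons: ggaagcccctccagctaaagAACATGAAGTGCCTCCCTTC
Ttn 7 exons: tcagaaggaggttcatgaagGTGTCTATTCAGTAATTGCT

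The circRNA of Slc8a1 at chr17:82047149-82048978 (mm9, minus strand) is exon 2 of a 12-exon transcript, 1830 nt long, which by textbook knowledge carries the start codon. That of Ryr2 at chr13:11773233-11780280 joins exon 62 back to exon 59 of 105, all coding. The smallest is a single coding exon of Atp2a2, exon 10 of 21, at chr5:122916837-122916939, and all 103 of its bases are printed, with the 20 bases after the junction in capitals.
Slc8a1 exon 2: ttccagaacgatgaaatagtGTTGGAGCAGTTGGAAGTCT
Ryr2 4 exons: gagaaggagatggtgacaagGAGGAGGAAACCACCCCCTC
Atp2a2 whole circle: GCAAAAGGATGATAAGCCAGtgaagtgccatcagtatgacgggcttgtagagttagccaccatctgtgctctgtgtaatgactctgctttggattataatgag

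The gene tables hold TPM alone, so their depth is unknown; between 13378 and 14027 genes reached 1 TPM in a heart library. Whole back-splice reads could be recovered, 5232, 1646 and 2393 in heart, where 1 read was worth 0.768, 2.14 and 1.38 RPM. The 4 Y-linked genes Ddx3y, Kdm5d, Uty and Eif2s3y were listed at 0 in the 14-week heart library and above 10 TPM in both of 20 weeks (Ddx3y at 71.2 and 70.7 TPM). They were also at 0 in the 14-week liver and lung libraries, apart from Uty at 0.103 TPM in lung. In 14-week brain and testis they were present, with Ddx3y at 49.2 and 10.1 TPM, so the 14-week libraries differed between tissues in this. Age and whatever sets the Y-linked level cannot be told apart in heart, liver or lung. Between the 2 heart libraries of 20 weeks, circRNA reads did not differ beyond sampling noise (chi-square test over 32 circRNAs with at least 10 reads, p = 0.0923), but 78 of 2637 genes at 50 TPM or more did differ by over 1.5-fold, among them Nppa at 1842 and 676 TPM, and they were kept as separate samples. Some gene rows are not usable in heart: Ttn is listed at 0, 4231 and 0 TPM although its circRNAs are in all 3 libraries, and Acta1, skeletal actin, is at 0 in all 15.

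Across 18966 genes, 3733 (19.7%) were higher and 8553 (45.1%) lower in heart than the mean of the 4 other tissues, and 691 (3.64%) were higher and 135 (0.712%) lower than in each of the 4. The test was limma on log2(TPM + 1), in which each of the 5 tissues had its own mean, with Benjamini-Hochberg adjustment over all genes and a threshold of 0.05. Against brain 2985 genes (15.7%) were higher and 8217 (43.3%) lower, against liver 7529 (39.7%) and 2160 (11.4%), against lung 2099 (11.1%) and 8892 (46.9%), and against testis 6507 (34.3%) and 6832 (36%), so the direction of the counts differed by tissue. The median gene lay 0.38 below the other tissues on the log2 scale, and once medians were made equal 5090 genes were higher and 6096 lower, a share of 45.5% higher in place of 30.4%. With the 12 other libraries taken as 1 group, which counts differences between tissues as spread, 633 were higher and 78 lower. The 12 largest differences among genes with a symbol, a mean of at least 5 TPM and no overlap between heart and the others were Myl2, Myl3, Mb, Myh6, Actc1, Ckm, Cox8b, Tnnc1, Nppa, Tnnt2, Tnni3 and Ckmt2. The separation was part of how they were chosen. They encode filament proteins, the oxygen store myoglobin, creatine kinases, a cytochrome oxidase subunit and atrial natriuretic peptide.

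Contractile genes tested were higher in heart with 1 exception. Of 39 sarcomere genes tested, 38 were higher than the mean of the other tissues and 37 higher than each of them, with a median log2 difference of 7.27 against -0.38 over all genes. Summed over the list, heart held 118960, 118198 and 121200 TPM, or 11.9% of all TPM on average, and the 12 others 126 to 1986 TPM. The heart sums include Ttn as listed, at 0, 4231 and 0 TPM. The 1 uncalled member was Ttn (1.15 ± 1.78, adjusted p = 0.591), whose listed zeros are given above and which was lower (-2.86) without the first 20-week heart library. Of the 39, 5 would not have passed the filter of 1 TPM in 3 libraries without heart, a filter that favours higher calls for them: Alpk3, Myot, Synpo2l, Trim55 and Xirp1, named for this count. The same held for 0.949% of all genes. Palld, an actin-bundling protein chosen after its values were seen, was higher than the mean but not than each tissue (adjusted p = 0.193).

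Myl2, the ventricular regulatory light chain, stood at 27755, 31584 and 36712 TPM in heart and 0 to 52.0 TPM elsewhere, a log2 difference of 11.79 ± 0.64 (SE, adjusted p = 2.93e-09). Myh6, the fast alpha myosin heavy chain of the adult mouse heart, stood at 15478, 8821 and 8572 TPM in heart and 0 to 126 TPM elsewhere, a log2 difference of 10.64 ± 0.51 (SE, adjusted p = 9.37e-10). The slow beta chain Myh7 reached 195, 172 and 151 TPM, far below Myh6 in each heart library, with 0 to 17.3 TPM elsewhere. In none of these genes did the heart and the other libraries overlap, and in each the highest of the others was lung. For Myl2 and Myh6 the separation was part of how they were chosen. Heart lay above all 12 others for 5.22% of all genes.

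The thin filament genes named were also above all other libraries in heart, which was part of how they were chosen. Cardiac actin Actc1 stood at 9924, 10426 and 10013 TPM in heart and 0 to 214 TPM elsewhere, a log2 difference of 10.55 ± 0.45 (SE, adjusted p = 2.98e-10). The cardiac troponins Tnni3, the inhibitory subunit, and Tnnt2, which binds tropomyosin, stood at 11688, 8253 and 9781 TPM and 9335, 7291 and 8513 TPM in heart, with at most 122 and 92.5 TPM elsewhere. Fhl2, a LIM protein of the sarcomere, Cmya5, a large Z-disc protein, and Trim63, the ubiquitin ligase MuRF1, had the smallest p of the list, with differences of 7.76 ± 0.15, 7.25 ± 0.12 and 6.76 ± 0.13 (SE). Lung held the most sarcomere RNA of the other tissues, 1598 to 1986 TPM over the list against 504 to 532 in brain, and the part of heart muscle in those lung samples was not tested.

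**Figure D1:**
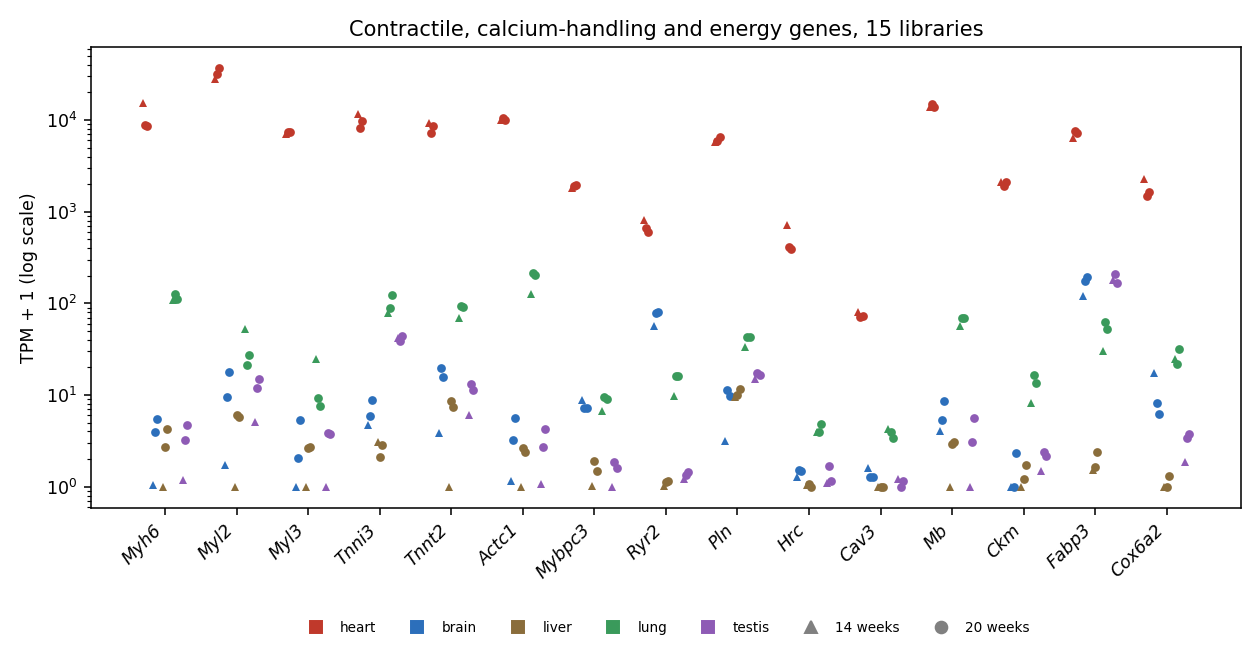
Level of 15 contractile, calcium-handling and energy genes in each of the 15 libraries, as TPM + 1 on a log axis, with tissues in colour, triangles for 14 weeks and circles for 20 weeks. The 3 heart points lie above all 12 others for every gene, and lung is the next highest for most of them. For the genes among the 12 largest differences, this separation was part of how they were chosen.

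The 250 bases before the RefSeq start sites (GRCm38.p6) of listed genes were searched on both strands for the CArG box and the MEF2 site. These are the binding sequences of the muscle regulators SRF and MEF2. Promoters were found for 32 genes of the sarcomere list, 47 promoters in all. A CArG box was in 8 of them, from 6 genes (17.0%, against 1.47% of all 32851 promoters), with 1 box shared by 2 overlapping promoters of Ldb3. A MEF2 site was in 5 (10.6% against 0.508%). None of the 22 calcium-handling, 29 oxidative phosphorylation or 22 fatty acid promoters held either. Sets this small would hold few or none at the shares of all promoters, so nothing is read from their zeros. The letters AGATAA, a binding sequence of zinc-finger factors such as Gata4, were in 23.4% against 9.99%, and TATAAA in 12.8% against 12.4%. These matches are descriptions of the letters and not evidence of binding. The promoters of Actc1 (chr2:114052876-114053125, minus strand), Myl3, the ventricular essential light chain (chr9:110763428-110763677, plus strand), and Myl7, the atrial light chain from the atrial list (chr11:5898783-5899032, minus strand), are printed with the CArG box in capitals.
Actc1 promoter: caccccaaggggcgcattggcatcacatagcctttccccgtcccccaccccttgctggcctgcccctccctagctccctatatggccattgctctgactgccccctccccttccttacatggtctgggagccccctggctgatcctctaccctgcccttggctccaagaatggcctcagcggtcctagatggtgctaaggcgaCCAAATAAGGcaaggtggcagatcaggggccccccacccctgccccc
Myl3 promoter: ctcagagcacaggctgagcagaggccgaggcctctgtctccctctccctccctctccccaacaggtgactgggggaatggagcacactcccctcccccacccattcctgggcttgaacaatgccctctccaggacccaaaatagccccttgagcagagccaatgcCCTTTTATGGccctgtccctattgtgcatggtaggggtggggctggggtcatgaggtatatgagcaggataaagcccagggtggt
Myl7 promoter: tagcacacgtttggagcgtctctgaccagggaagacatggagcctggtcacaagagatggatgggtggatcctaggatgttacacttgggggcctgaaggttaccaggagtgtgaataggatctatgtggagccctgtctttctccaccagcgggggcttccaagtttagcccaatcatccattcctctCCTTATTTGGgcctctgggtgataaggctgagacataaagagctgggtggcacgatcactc

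Calcium-handling genes were higher as a group but not uniformly. Of 25 tested, 20 were higher and 3 lower, beside 19.7% and 45.1% of all genes, with 12 higher than each tissue and a median of 3.51. Ryr2 stood at 804, 671 and 594 TPM in heart and 0.00634 to 79.0 TPM elsewhere, a log2 difference of 6.81 ± 0.17 (SE, adjusted p = 1.78e-12), with brain the next highest. Phospholamban (Pln), the inhibitor of the calcium pump, stood at 5771, 5967 and 6519.8 TPM in heart and 2.18 to 42.0 TPM elsewhere, and the pump Atp2a2 at 5779, 6274 and 5670.2 TPM in heart and 28.5 to 480.4 TPM elsewhere. Hrc, a calcium-binding protein of the sarcoplasmic reticulum, and Cav3, muscle caveolin, were almost restricted to heart, at 716, 408 and 389 TPM and 79.4, 69.9 and 72.2 TPM against at most 3.88 and 3.21 TPM.

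The exchanger Slc8a1 stood at 663, 750.1 and 813 TPM in heart and 2.49 to 385 TPM elsewhere, where the upper end was brain, and was higher than each tissue (adjusted p = 0.00276). The lower members included Fkbp1b, calstabin 2 (-1.20 ± 0.21), and Itpr1, the inositol trisphosphate receptor (-0.80 ± 0.23, log2 differences with SE). The channel subunit Cacna1c, at 113, 118 and 111 TPM, was higher than the mean but lung reached 87.9 TPM, and the test against each tissue was not passed (adjusted p = 0.816).

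Electrical, junctional and regulatory genes followed. Ion channel and conduction genes were higher in 25 of 26 and higher than each tissue in 12. Intercalated disc and membrane complex genes were so in 23 of 25 and 13, and cardiac transcription factors in 23 of 23 and 8. Of all genes, 19.7% were higher and 3.64% higher than each tissue. Of the 26 ion channel and conduction genes, 1 would not have passed the filter without heart. Popdc2, a cyclic AMP-binding membrane protein, stood at 339.6, 364 and 334 TPM in heart and 0 to 9.43 TPM elsewhere. Kcnj5, a subunit of the acetylcholine-gated potassium channel, and Kcnj11, the pore of the ATP-sensitive potassium channel, stood at 55.4, 41.4 and 34.7 TPM and 72.8, 53.3 and 64.3 TPM. Desmoplakin (Dsp), which anchors desmin at the disc, stood at 600.3, 692 and 711 TPM in heart and 0.541 to 65.1 TPM elsewhere, and Sgca and Sgcd, 2 sarcoglycans, differed by 5.07 ± 0.18 and 4.47 ± 0.20 on the log2 scale (SE).

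The transcription factor list summed to 1774, 1720.3 and 1621 TPM in heart and 1383 to 1590.4 TPM in lung. Nkx2-5, a homeodomain factor of cardiac fate, stood at 29.5, 16.1 and 19.5 TPM in heart and 0 to 0.258 TPM elsewhere. Irx4, a ventricular factor, stood at 21.3, 17.1 and 18.1 TPM in heart and 0 to 0.128 TPM elsewhere, and Hand2, a basic helix-loop-helix factor, at 20.6, 28.2 and 25.1 TPM in heart and 0 to 1.97 TPM elsewhere. All 3 were under 30 TPM in heart. Nkx2-5 and Irx4, 2 of the 23 in the count above, would not have passed the filter without heart, so their values are a description with no test.

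The 3 heart libraries differed among themselves in the genes of the heart chambers. The 14 atrial genes summed to 10148, 5605 and 2182 TPM, while the ventricular genes, led by Myl2, summed to 41524, 46023 and 51637 TPM in the opposite order. Of the ventricular genes, only Myl2, Myl3, Kcnd2 and Pln rose through all 3 libraries. Atrial natriuretic peptide Nppa stood at 3826, 1842 and 676 TPM, the atrial light chains Myl7 and Myl4 at 3144, 1593 and 715 TPM and 1915, 1249 and 444 TPM, and sarcolipin (Sln), an inhibitor of the calcium pump in atria, at 739.8, 519 and 214 TPM. The level fell from the 14-week over the first to the second 20-week library for 12 of 14 atrial genes and 0 of 10 ventricular genes, and for 27.5% of all genes tested. Brain natriuretic peptide (Nppb), at 449, 762 and 541 TPM, and Pln, at 5771, 5967 and 6519.8 TPM, did not follow the atrial order. The exceptions among the atrial genes were Kcna5, a potassium channel, and Fgf12, chosen here after their values were seen. With 1 library at 14 weeks no test was made; the libraries of 20 weeks also differed from each other, and the share of atrial tissue in the samples was not tested. Other lists were also highest in the 14-week library. Fibroblast markers summed to 2174, 1198 and 1281 TPM and mural and smooth muscle markers to 958, 689 and 745 TPM. Both rose from the first to the second 20-week library, against the atrial order. Mesothelial markers summed to 57.8, 36.0 and 32.0 TPM, macrophage to 906, 549 and 496 TPM and endothelial to 1273, 1118 and 989 TPM. These last lists fell less between the 20-week libraries than the atrial sum did. Oxidative phosphorylation genes ran the other way, at 68460.2, 86034 and 92787 TPM. The part of these lists in the chamber differences was not tested.

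**Figure D2:**
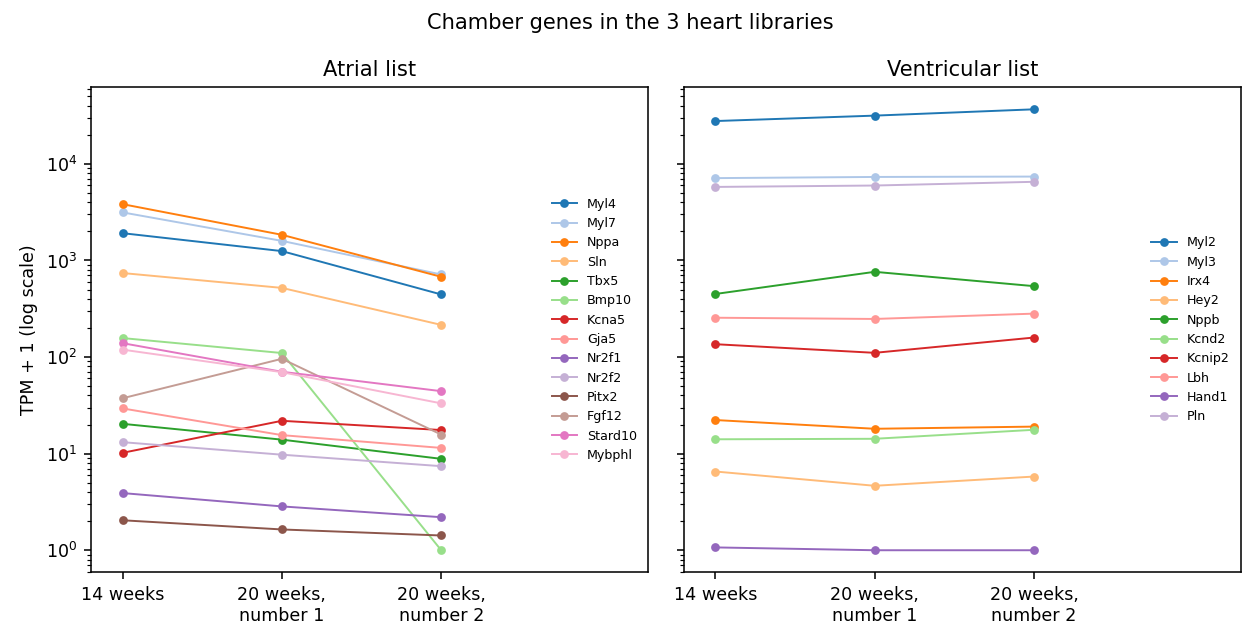
Atrial (left) and ventricular (right) genes in the 3 heart libraries, as TPM + 1 on a log axis, 1 line per gene. Most atrial lines, Nppa, Myl7, Myl4 and Sln among them, descend from left to right, Bmp10 drops to a listed 0 in the last library, and the ventricular lines are nearly level.

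Against the other tissues, 9 of 14 atrial genes were higher, 1 (Stard10) lower and 6 higher than each tissue. All 9 ventricular genes tested were higher and 6 higher than each, beside 19.7% and 3.64% of all genes. Of the 9, 1 would not have passed the filter without heart. Nppa differed by 9.34 ± 0.45 and Nppb by 8.54 ± 0.23 on the log2 scale (SE). Both were separated from all 12 other libraries, which for Nppa was part of how it was chosen. Lung carried atrial transcripts, with Myl7 up to 262 TPM and Sln up to 49.8 TPM. Their source in the lung samples was not tested.

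Genes of oxidative metabolism were mostly higher in heart. All 26 fatty acid genes and all 20 citric acid cycle genes tested were higher in heart, 19 and 17 of them than each tissue, and 32 of 34 oxidative phosphorylation genes were higher, 30 than each. Median log2 differences were 3.60, 2.75 and 2.76, beside -0.38 over all genes, of which 19.7% were higher. Fabp3, the muscle fatty acid-binding protein, stood at 6304, 7605 and 7293 TPM in heart and 0.508 to 209 TPM elsewhere, Cpt1b, which passes acyl groups into mitochondria, at 566, 653 and 626 TPM in heart and 1.86 to 161 TPM elsewhere, and Acadvl, the very-long-chain acyl-CoA dehydrogenase, at 974, 888 and 894 TPM in heart and 20.4 to 274 TPM elsewhere. In the citric acid cycle Pdha1, of pyruvate dehydrogenase, and Idh3a and Idh3g, subunits of isocitrate dehydrogenase, differed by 3.77 ± 0.11, 3.40 ± 0.13 and 2.94 ± 0.11 (log2, SE). Slc25a4, the adenine nucleotide carrier of heart and muscle, stood at 4093, 5906 and 6020.1 TPM in heart and 3.86 to 1052 TPM elsewhere, and Uqcrfs1, the Rieske protein of complex III, at 1052, 1124 and 1096 TPM in heart and 74.8 to 220.1 TPM elsewhere.

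Sugar and phosphocreatine genes were mixed, 21 higher and 4 lower of 28, beside 19.7% higher and 45.1% lower of all genes. Muscle creatine kinase Ckm stood at 2113, 1889 and 2112 TPM in heart and 0 to 15.4 TPM elsewhere, its mitochondrial partner Ckmt2 at 2643, 2596 and 2609.9 TPM in heart and 0 to 20.3 TPM elsewhere, muscle enolase Eno3 at 1597, 1319 and 1476 TPM in heart and 2.65 to 67.9 TPM elsewhere, and the insulin-responsive glucose carrier Slc2a4 at 263, 327 and 385 TPM in heart and 0.0572 to 12.2 TPM elsewhere. The lower ones were Aldoc, Ckmt1, Eno1 and Pgam1, at -3.77 ± 0.31, -2.24 ± 0.33, -0.86 ± 0.13 and -0.41 ± 0.16 (log2, SE). Myoglobin (Mb) reached 13999, 14998 and 13962 TPM, among the highest of all heart genes named here, with at most 68.6 TPM elsewhere.

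For 3 cytochrome oxidase subunits, muscle and general isoforms could be compared. Cox6a2, the muscle form, stood at 2269, 1501 and 1658 TPM in heart and 0 to 30.4 TPM elsewhere, and its general form Cox6a1 was lower in heart, at 253, 209 and 223 TPM against 211 to 1341 TPM (-0.88 ± 0.14, adjusted p = 8.54e-05). Cox8b stood at 2299, 3680.1 and 3939 TPM in heart and 0 to 26.9 TPM elsewhere, and Cox8a did not pass the test (0.16 ± 0.17, adjusted p = 0.41). Cox7a1 stood at 4233, 7075 and 7583 TPM in heart and 5.16 to 65.5 TPM elsewhere, and Cox7a2 was higher too, at 941, 1262 and 1424 TPM (1.61 ± 0.27). Among creatine kinases, the brain form Ckb, at 52.9, 37.0 and 39.1 TPM in heart, did not pass the test (0.14 ± 0.26, adjusted p = 0.656) and Ckmt1 was lower.

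Small heat shock and chaperone genes of muscle were higher in 10 of 12, beside 19.7% of all genes, with a median of 4.06. Cryab, alpha-B crystallin, stood at 2083, 1509.6 and 1363 TPM in heart and 1.45 to 187 TPM elsewhere, Hspb7 at 449, 658 and 425 TPM in heart and 0 to 7.46 TPM elsewhere and Hspb6 at 283, 247 and 170.2 TPM in heart and 1.93 to 12.5 TPM elsewhere. The 1 lower member was Hsp90aa1, at -1.85 ± 0.29 (log2, SE).

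Of 32 RNA-binding and splicing regulators, 10 were higher, 12 lower and 10 not called, beside 19.7% higher and 45.1% lower of all genes, and the median was -0.25 beside -0.38. Higher than each tissue were Rbm20, which regulates splicing of Ttn, at 152, 131 and 131 TPM in heart and 0.736 to 3.56 TPM elsewhere, Rbm24 at 104, 127 and 155 TPM in heart and 0.0699 to 14.9 TPM elsewhere and Rbm38, which was outside the rule for named genes and chosen for this count, at 54.6, 55.9 and 52.3 TPM in heart and 0.702 to 9.51 TPM elsewhere. Qk (Quaking) and Mbnl1 (Muscleblind), 2 proteins known to bind introns beside circularised exons, stood at 374, 408 and 376 TPM and 157, 121 and 121 TPM in heart, within the ranges of 31.4 to 502 and 12.0 to 243 TPM elsewhere. They were higher than the mean of the tissues (1.41 ± 0.16 and 1.11 ± 0.13, log2, SE) but not than each. The 30 genes listed as hosts of heart circRNAs, chosen with earlier results known, were higher in 19 and lower in 2.

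**Figure D3:**
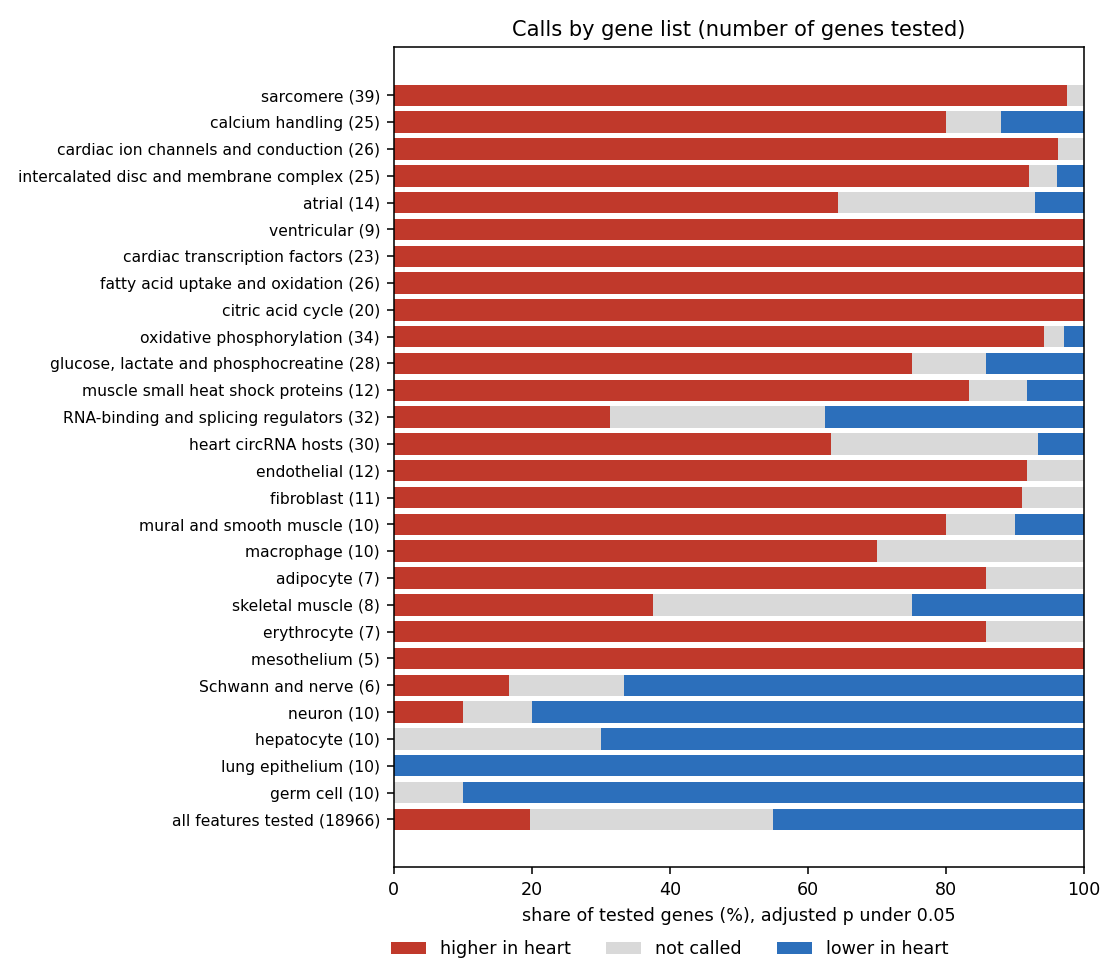
Share of the tested genes of each of the 27 lists, and of all 18966 genes, called higher (red) or lower (blue) in heart than the mean of 4 tissues, with uncalled genes in grey. Lists of contraction, transcription factors and oxidative metabolism are nearly all red, those of neurons, hepatocytes, lung epithelium and germ cells mostly blue, and all genes hold 19.7% red and 45.1% blue.

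Markers of the other cells of the heart were present. Endothelial markers were higher in 11 of 12, fibroblast in 10 of 11, mural and smooth muscle in 8 of 10, macrophage in 7 of 10 (3 without the 14-week heart library), adipocyte in 6 of 7, erythrocyte in 6 of 7 (4 without the 14-week or the second 20-week heart library) and mesothelial in 5 of 5, but few were higher than each tissue: 0, 2, 2, 1, 1, 0 and 0. Of all genes, 19.7% were higher than the mean and 3.64% higher than each tissue. Of the 7 adipocyte genes, 2 would not have passed the filter without heart. The highest sum of endothelial markers in another library, of lung, was 4559.9 TPM, above each heart library. Erythrocyte genes varied between heart libraries, at 15197, 4026 and 8484 TPM. The pericyte genes Rgs5, at 437, 423 and 400.2 TPM in heart and 5.67 to 89.5 TPM elsewhere, and Kcnj8, at 34.4, 24.5 and 31.4 TPM in heart and 0.501 to 9.46 TPM elsewhere, and the thermogenic gene Ucp1 of brown fat, at 5.98, 22.5 and 12.9 TPM in heart and 0 to 0.804 TPM elsewhere, were higher than each tissue, where Ucp1 would not have passed the filter without heart. In bulk tissue, fewer cells of a type and less RNA per cell cannot be told apart.

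Skeletal muscle markers stayed low, at 33.9, 37.5 and 27.7 TPM in sum, with 3 higher and 2 lower of 8 tested, beside 19.7% and 45.1% of all genes. Of the 8, 2 would not have passed the filter without heart. Mybpc2, the fast skeletal myosin-binding protein, was the highest of them on average in heart, at 20.1, 14.3 and 8.06 TPM in heart and 0 to 1.01 TPM elsewhere, and would not have passed the filter without heart. Neuron, hepatocyte, lung epithelium and germ cell markers were lower in 8 of 10, 7 of 10, 10 of 10 and 9 of 10. Schwann and nerve markers were lower in 4 of 6, and 45.1% of all genes were. The mean compared against holds the tissue that the first 4 of these lists mark, so their counts were largely set by the choice of list. Schwann and nerve markers summed on average to 4081 TPM in brain and 491 in lung, against 67.7 in heart, 19.7 in testis and 5.18 in liver. Their count thus also depends on the tissues in that mean. No gene of these lists was lower than each tissue, and heart had the lowest mean sum for none of them. In heart these 5 lists summed to at most 128 TPM.

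The 8 named low genes were picked among those with heart below all 12 other libraries, which held for 2.07% of all genes, as heart above all 12 did for 5.22%. Igfbp2, an insulin-like growth factor-binding protein, stood at 0.851, 0 and 0.246 TPM in heart and 4.99 to 259 TPM elsewhere, a log2 difference of -5.42 ± 0.31 (SE, adjusted p = 5.1e-09), and Glt1d1, a glycosyltransferase-like gene, at 0.0865, 0 and 0 TPM in heart and 4.76 to 134 TPM elsewhere. The glial glutamate transporter Slc1a2 stood at 0.917, 2.69 and 0.993 TPM in heart and 4.90 to 977 TPM elsewhere, lowest in heart even beside the peripheral tissues. Tmem56, Sec14l2, Ccdc30 and Ppp4r4 had heart levels under 5 TPM and differences of -4.49 ± 0.18, -4.35 ± 0.14, -4.33 ± 0.28 and -4.26 ± 0.18 (log2, SE). Fgfr2, a growth factor receptor, was the eighth of the named low genes, at 3.24, 0.832 and 2.00 TPM in heart and 3.27 to 313 TPM elsewhere, and did not pass the test against each tissue (adjusted p = 0.0748). Without the first 20-week heart library the 135 genes became 89, and with 20-week libraries alone 231.

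CircRNA abundance in heart lay between that of liver and that of testis and brain. Back-splice reads summed to 4019.8, 3524 and 3308 RPM in heart, a mean of 3617 ± 365 RPM (SD, n = 3), against 27626 ± 2822 in brain, 10016 ± 5819.9 in testis, 4254 ± 284 in lung and 1419.9 ± 154 in liver. Heart was 1.73-fold below the 12 others by geometric mean, which was within their spread (two-sided exact permutation test over 455 arrangements, p = 0.457). Every brain and testis library lay above every heart library and every liver library below, while lung overlapped with heart. In an exact permutation test 3 libraries against 3 cannot reach a p under 0.10, so the totals of single tissues were not tested. Reads in at least 1 heart library were seen for 3748 circRNAs, and in all 3 for 261. Depth differs between libraries, and the number above 0 followed it, at 2600, 989 and 1315 (1.67-fold below the others, exact permutation p = 0.332).

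Ttn gave the largest share of heart circRNA. Its circRNAs summed to 324, 443 and 347 RPM, 8.07, 12.6 and 10.5% of the heart total, in 30 species and 880 reads. Brain, liver and testis had no Ttn back-splice read, lung had 3.71, 3.70 and 4.2 RPM, and the other 13 mouse libraries of the series had none. The 30 circRNAs had a median of 35.5 exons and 6576 spliced nt, against 4 exons and 657 nt for all 3725 circRNAs of heart with an exon record. Reads came from few splice sites: 81.4% left from the donor at position 76695961, and 64.5% and 19.2% entered at 76719896 and 76722254 (mm9).

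The 34-exon circle whose junction heads the sequences above stood at 207, 225 and 195 RPM, with 515 heart reads and 6 elsewhere, all in lung. That is 352 times the other libraries per read scale (exact 95% interval 161 to 963, counting error only), and a log2 difference of 7.01 ± 0.26 (SE). The 35-exon circle stood at 46.9, 107 and 67.7 RPM and the 7-exon circle at 16.9, 32.1 and 34.6 RPM. Neither had a read in the 12 other libraries, which puts them at least 223-fold and 84.1-fold higher than a floor of 3 reads over those libraries. None of the 3 would have met the minimum of 20 reads without heart, so these values are a description. By DESeq2 the 7-exon circle did not pass the test. The linear gene cannot serve for comparison, as Ttn TPM is listed at 0 in 2 heart libraries.

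**Figure D4:**
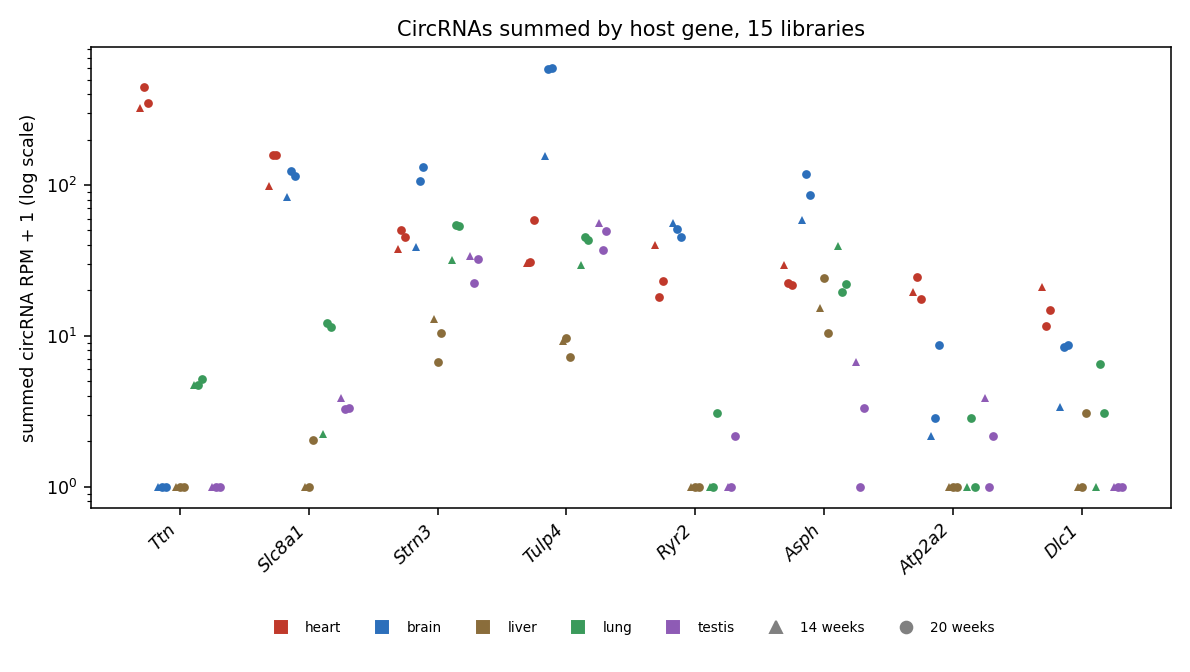
CircRNA reads summed by host gene in each of the 15 libraries, as RPM + 1 on a log axis, with tissues in colour, triangles for 14 weeks and circles for 20 weeks. Ttn is high in heart alone with a trace in lung, Slc8a1 is as high in heart as in brain, and Tulp4 and Asph are highest in brain.

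Of 847 circRNAs with at least 20 reads, 24 (2.83%) were higher in heart than the mean of the 4 tissues and 291 (34.4%) lower, by limma on log2(RPM + 1.18); 4 (0.472%) were higher and 0 (0%) lower than in each. Against single tissues, 11 (1.3%) were higher and 556 (65.6%) lower than in brain, 35 (4.13%) and 235 (27.7%) against testis, 20 (2.36%) and 27 (3.19%) against lung, and 42 (4.96%) and 7 (0.826%) against liver. No circRNA was lower than in each by edgeR or DESeq2 either, and 1 was at an unadjusted limma p under 0.05. The count lower than the mean depended on the test: edgeR on recovered reads gave 6, DESeq2 2, and equal medians 5, with 37, 20 and 49 higher. They also fell to 147 and 157 without the first and the second 20-week heart library. Of the 291, 208 had no heart read, as had 284 of all 847. The 4 circRNAs beyond each tissue were the 3 of Ttn and the single exon of Atp2a2, none of which would have met the minimum of 20 reads without heart; the same held for 11 of the 24 and 87 of the 847. The count was 3 with 20-week libraries alone or by DESeq2, 6 by edgeR after TMM or with equal totals, and 21 when circRNAs above 0 in 3 libraries were kept.

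The Atp2a2 circle of 103 nt, printed whole above, stood at 8.45, 17.1 and 9.68 RPM in heart, 26 reads against 1 in the 12 others (in brain), a ratio of 107 (exact 95% interval 17.5 to 4368). Its log2 difference was 3.28 ± 0.28 (SE). A second Atp2a2 circle of 2 exons stood at 6.91, 6.42 and 5.53 RPM and was higher than the mean (2.03 ± 0.43) but not than each tissue. This second circle had 16 heart reads and 9 in the other libraries. It would not have met the minimum of reads without heart, so its values are a description.

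The second host was Slc8a1, with 98.3, 158 and 158 RPM or 3.90 ± 1.27% of the heart total (SD, n = 3). Its exon 2 circle stood at 90.7, 141 and 151 RPM in heart and 35.3, 104 and 95.8 RPM in brain, and at most 9.25 RPM in the other 3 tissues. Heart exceeded the mean of the tissues by 4.34 ± 0.45 (log2, SE, adjusted p = 2.12e-05). Against brain alone the difference was 0.81 ± 0.57 (adjusted p = 0.229), and the libraries of both tissues overlapped.

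Against brain, Ryr2 circRNAs went the other way from their gene. They summed to 39.2, 17.1 and 22.1 RPM in heart and 55.3, 50.1 and 44.1 RPM in brain, with every heart library below every brain library, whereas the gene stood at 804, 671 and 594 TPM in heart and 55.6, 76.9 and 79.0 TPM in brain. The 4-exon circle had 16.9, 8.56 and 8.29 RPM in heart and 25.9, 22.2 and 26.8 in brain. Relative to the gene it was 4.42 ± 0.43 lower in heart than in brain on the log2 scale (limma without a minimum on host TPM, adjusted p = 8.18e-07). It was higher than the mean of the 4 tissues all the same (2.01 ± 0.37), and liver, lung and testis together had 2 reads of it.

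Among the other circRNAs that were higher in heart, Dlc1, a GTPase-activating protein, had a single-exon circle of 1199 nt at 17.7, 10.7 and 11.1 RPM, above all 12 other libraries (2.73 ± 0.52). The Dlc1 circle would not have met the minimum of 20 reads without heart, so its values are a description. Msrb3, a methionine sulfoxide reductase, and Ogdh, of the citric acid cycle, had circles at 16.9, 15.0 and 9.68 RPM and 13.8, 4.28 and 12.4 RPM (2.12 ± 0.48 and 1.56 ± 0.44), and overlapped with other tissues. Of the 23 higher circRNAs with a tested host gene, the host was higher in 18 (78.3%), against 19.1% of all 828 circRNAs with such a host. Of the 24 higher circRNAs, 11 met the minimum of reads only through heart, against 87 of all 847. Such a filter favours circRNAs high in heart, so the contrast is a description. The deposited table lists no circRNA for any of the 12 genes with the largest differences, Myl2 and Myh6 included, and of 37 sarcomere circRNAs seen in heart all but 7 were of Ttn.

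Other abundant heart circRNAs were as high or higher in brain. Strn3, a striatin, had a 6-exon circle at 18.4, 32.1 and 34.6 RPM, Tulp4 a single exon at 28.4, 27.8 and 56.7 RPM and Elf2, an ETS factor, a 3-exon circle at 13.1, 25.7 and 23.5 RPM. None of these passed the test, and in brain they averaged 41.4, 419 and 169 RPM. Strn3 did pass with equal totals, with the 20-week libraries alone, and with DESeq2 or edgeR after TMM scaling.

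Relative to the host gene, more circRNAs were lower than higher in heart when set against the mean of the 4 tissues, brain, liver or testis, and more were higher against lung. Among 655 circRNAs whose host had at least 1 TPM in all 15 libraries, the log2 ratio of circRNA to host was higher in 13 (1.98%) and lower in 91 (13.9%), with a median of -0.29. Against brain 21 (3.21%) were higher and 215 (32.8%) lower, against liver 19 (2.9%) and 84 (12.8%), against testis 62 (9.47%) and 158 (24.1%), and against lung 55 (8.4%) and 24 (3.66%). The host level lay above the mean of the tissues for 77 of the 91 and below it for all 13, and above it for 196 of the 655 (29.9%). The host is the denominator of the ratio, so nothing is read from these counts. Across the 655, the difference of the circRNA and that of its host had Pearson's r = 0.509 and a Spearman rank correlation of 0.406, a description across circRNAs that share libraries. The counts moved with the settings: without the second 20-week heart library they were 7 and 44, without the first 52 were lower, and without the 14-week brain or testis library 20 or 25 were higher. With a pseudocount 5 times as large, 97 were higher and 126 lower.

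The exon 2 circle of Slc8a1 did not differ detectably from its gene, with a ratio difference of -0.25 ± 0.48 (SE, adjusted p = 0.805), whereas a 9-exon circle of Slc8a1 differed by -2.94 ± 0.44 (adjusted p = 9.34e-05). Both Atp2a2 circles were lower relative to the gene, by -2.23 ± 0.37 and -3.49 ± 0.47, although their levels were higher in heart. Both circles met the minimum of reads only through heart, so their higher levels are a description. Myzap, an intercalated disc protein, had a gene level of 434, 768 and 795 TPM in heart and a circle of 6 exons at 4.61, 2.14 and 12.4 RPM, a ratio difference of -3.84 ± 0.42. Oxct1, which activates ketone bodies, had 1424, 2119 and 2389 TPM and a circle at 4.61, 2.14 and 9.68 RPM (-3.68 ± 0.50), and Ndufs1, of complex I, 711, 838 and 854 TPM and 0, 0 and 2.76 RPM (-3.68 ± 0.54). Each of these genes was higher in heart, and the circle's own difference was smaller. For Ndufs1 the circle's difference was below 0, at -0.87 against 2.81 for the gene. With a pseudocount 5 times smaller, Oxct1 and the 2-exon circle of Atp2a2 were not called.

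Of the 13 higher ratios, 5 had no heart read at all, among them the 2 largest, Ccdc30 (3.60 ± 0.43) and Chn2 (3.00 ± 0.40), whose genes stood at 3.01, 3.95 and 2.10 TPM and 5.28, 6.08 and 4.21 TPM. Of the 91 lower ratios, 36 had none either, as had 150 of all 655, and they include a circle each of Ogdh (-4.22 ± 0.50) and Asph (-3.71 ± 0.36). On both sides the heart value of such a ratio holds only the pseudocount and the host. Strbp, an RNA-binding protein, was read in every heart library, at 4.61, 8.56 and 5.53 RPM for a gene of 33.2, 26.3 and 24.2 TPM (2.03 ± 0.43), and Bbs9 in 2 of 3, at 4.61, 8.56 and 0 RPM. Strbp was not called with 20-week pairs averaged, nor Bbs9 with a pseudocount 5 times smaller.

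**Figure D5:**
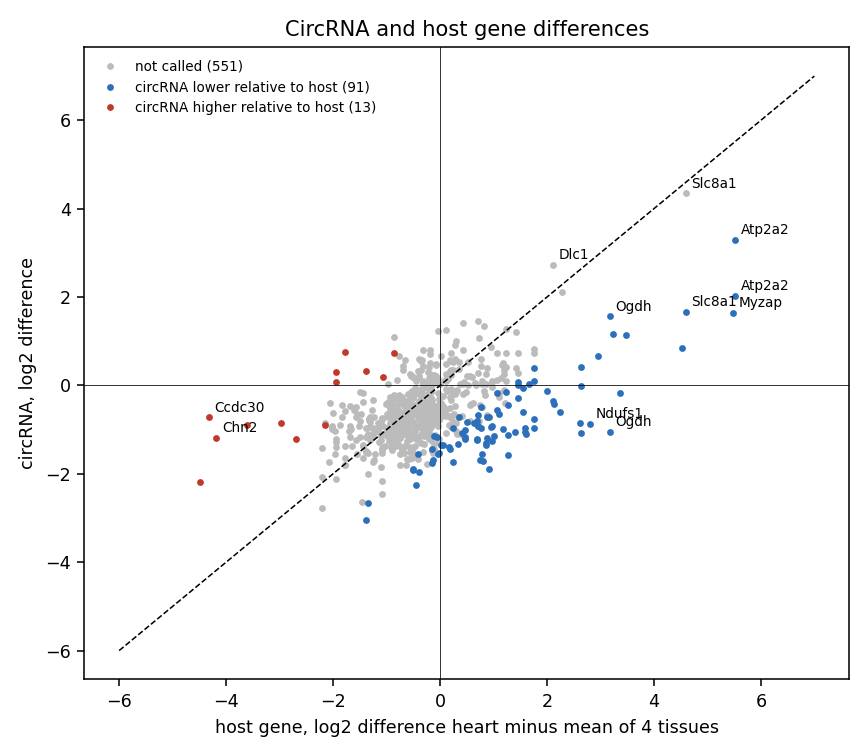
Log2 difference of the circRNA (vertical) against that of its host gene (horizontal), heart minus the mean of 4 tissues, for 655 circRNAs, with 91 called lower relative to the host in blue, 13 called higher in red and the line of equality dashed. Atp2a2, Myzap and Ogdh lie far to the right and below the line, and the exon 2 circle of Slc8a1 lies close to it.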

How the data were processed

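RNA of 15 rRNA-depleted libraries was analysed, 3 each of heart, brain, liver, lung and testis. The members and lists were chosen with earlier results of these data known. The authors deposited gene levels as TPM, transcripts scaled by length and library. They deposited circRNA levels in a table whose values behaved as RPM, since 100% were whole multiples of 1 read's worth within a tolerance of 0.1, so reads could be recovered. For all files, mm9 is the mouse build per the submitters' processing notes, which also list Cufflinks 2.2.1, TopHat2 2.0.6 and CASAVA 1.8.2 with no role; the circRNA caller and the RPM denominator are not given in the sources used here. Deposited exon blocks of each circRNA, another number per record, gave its exons.

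Genes with at least 1 TPM in 3 libraries and circRNAs with at least 20 reads over the 15 libraries were tested with limma 3.58.1 (R 4.3.3) on log2 values with a mean per tissue, with pseudocounts of 1 TPM and 1.18 RPM and Benjamini-Hochberg adjustment; a filter passed through heart alone favours heart-high features. A gene differed from each tissue when the largest of the 4 pairwise p-values passed. All limma p-values are two-sided. CircRNA to host ratios needed a host at 1 TPM in all 15. Totals used exact permutation tests. Fold changes of log values understate changes of low features. A floor is 3 reads over the group, and intervals (exact, 95%) cover counting error only.

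Named genes were the 3 with the smallest p of each list, the 12 highest and 8 lowest separated differences, and a fixed set of heart genes. Named circRNAs were the 12 highest and 8 lowest, the 10 most abundant in heart and the top one of each listed host, and named ratios the 8 highest and 8 lowest. Alternatives used edgeR 4.0.16, DESeq2 1.42.0, other scalings, filters and pseudocounts, and each library left out. Statistics were tested on simulated data. Rat and hippocampal libraries were left out, as not part of the heart comparison. A member of the calcium list is not reported here by name.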

Additional observations from a re-analysis of the deposited data

Results flagged for a closer look

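Of the named circRNAs, 3 moved in opposite directions at the 2 ages, and in each case the difference was not tested, since heart has 1 library at 14 weeks. The values are log2 differences of heart from the mean of the other tissues of the same age. The Foxo3 circRNA, from a forkhead factor gene, stood at 0.22 at 14 weeks and -0.43 at 20 weeks, on 1 heart read (0.768, 0 and 0 RPM), so both 20-week values hold only the pseudocount. The Hipk3 circRNA, from a kinase gene, stood at 0.41 and -0.35. The Nfix circRNA, from a nuclear factor gene, stood at -0.61 and 0.43. Hipk3 had 35 heart reads (20.7, 6.42 and 6.91 RPM) and Nfix 44 (13.1, 23.6 and 22.1 RPM).

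Outside the 15 libraries, the Slc8a1 exon 2 circle was seen in 12 of the 13 other mouse libraries, with a median of 51.8 RPM. The highest was CA1 neuropil, the layer of nerve cell processes in the hippocampus, at 100.8 RPM, within the range of the heart libraries. The oligo(dT)-selected brain library, the 13th, had none.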

How the results depend on the processing

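Across the alternatives, values of named genes kept their direction and side of the threshold 2425 times, lost the call 46 times and reversed 1 time. Named circRNA levels did so 624 times, lost the call 12 times and gained one 8 times, and named ratios kept theirs 347 times and lost the call 21 times. Most lost calls of genes came from taking the 12 other libraries as 1 group. Sign changes of differences called in neither fit came to 41 values over 10 features, 9 of them circRNAs. Ttn TPM was 1.15 with all libraries, -2.86 and called lower without the first 20-week heart library, and 3.16 without the 14-week one. Where no construction is named, the cause of a moved count was not tested.

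Taken as 1 group, the 12 others gave 633 genes higher and 78 lower, 4 circRNAs higher and 0 lower, and 1 ratio higher and 12 lower. With 20-week libraries alone, 231 genes were lower than in each. Averaging the 20-week pairs, chosen after seeing the data, leaves 2 libraries per tissue and gave 432 genes higher and 38 lower than each, 150 circRNAs lower, and 6 ratios higher and 42 lower. For circRNAs, higher and lower counts were 37 and 6 by edgeR after TMM, 23 and 6 by edgeR on the deposited scale (added after seeing the data), 20 and 2 by DESeq2, 49 and 5 with equal medians, 50 and 170 with equal totals, and 47 and 179 (21 higher than each) when circRNAs above 0 in 3 libraries were kept. Ratios were 74 higher and 129 lower with no host minimum, 97 and 126 with a pseudocount 5 times as large, and 4 higher and 46 lower with one 5 times smaller.

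Leaving out 1 library gave 3214 to 3896 genes higher and 7412 to 8941 lower, 591 to 721 higher and 89 to 159 lower than each. CircRNAs ranged from 18 to 26 higher and 147 to 330 lower, with 4 to 4 higher than each, and ratios from 7 to 25 higher and 44 to 100 lower. The log2 circRNA total ranged from -0.99 to -0.58. A replicate block on the library number gave 3991 genes higher and 8978 lower, 26 and 295 circRNAs and 15 and 96 ratios, and changed no named call. The block carries age: deviations of heart and other libraries of the same block correlated at 0.106 to 0.506 over genes. The 20-week number 1 minus number 2 correlated at only 0.0351 to 0.0982, so the samples were not treated as paired. CircRNAs are limited by depth, as 562 of 847 had at most 3 heart reads.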
